A study of Mus musculus with 2 samples.

Results

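The vomeronasal type 2 receptor (Vmn2r) genes of the mouse were described in DNase-seq data from heart, as a gene family that heart is not known to use. Members were the protein-coding genes of GENCODE M21 (mm10) whose symbol is Vmn2r followed by a number, which gave 120 of 21911 protein-coding genes. The symbol rule uses no measured values, but the family was chosen with earlier results of these data known. Heart tissue came from B6CASTF1/J male mice, the F1 of a C57BL/6J and a CAST parent, aged 14 days. There was 1 group with 2 biological replicates and no treatment or contrast, so no test was made and values are given for each replicate. Per the labels, replicate 1 came from 3 males; for replicate 2 the labels state no number, and pooling is not given in the sources used here. DNase-seq maps where the nuclease DNase I cuts chromatin: a peak is a stretch cut more often than its surroundings, its signal is the height the authors gave it, and a footprint is a short run of protected bases, often under a bound protein.

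Vmn2r genes encode class C G protein-coupled receptors with a large extracellular domain, which detect peptides and proteins that carry social information. They are expressed in sensory neurons of the basal layer of the vomeronasal organ, where they signal through the G protein subunit Gnao1 and the channel Trpc2. Each neuron expresses one receptor of the main clades together with a member of the small clade of Vmn2r1 to Vmn2r7. The genes are known to have multiplied by tandem duplication, so many copies are nearly identical.

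None of the 120 Vmn2r promoters, taken as 1 kb either side of any annotated start, held a peak in either replicate. Among all protein-coding genes 68.8% held a promoter peak in both replicates and 71.7% in at least 1 replicate. The Vmn2r windows also held 0 bases with a false discovery rate (FDR) of cleavage under 0.05 among 280434 bases in either replicate, against 16.2% and 16.6% of the promoter windows of all protein-coding genes in replicates 1 and 2. They held 0 footprints in either replicate. The count was the same in the smaller peak sets, in windows of 500 bp and of 2 kb, and in each replicate alone.

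The genes lay in 17 groups of neighbours, split where more than 1 Mb lay between 2 members, on chromosomes 3, 5, 6, 7, 10, 14, 17 and X. The largest group held 24 genes, Vmn2r29 to Vmn2r52, at chr7:7231327-10176573, and the next held 22 genes at chr17:17703747-20596423. Chromosome 7 carried 51 members and chromosome 17 carried 31. The median gene was 27.2 kb long, against 17.4 kb for all protein-coding genes.

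The sequences below are 5 promoters from RefSeq on GRCm38.p6 (the mm10 assembly), from 250 bases before to 50 after the RefSeq start, on the strand of the gene. Vmn2r83, Vmn2r90, Vmn2r110 and Vmn2r118 are the 4 members whose GENCODE windows hold only 36-base words that occur once in the genome. None of these 5 genes had a promoter peak in either replicate. Vmn2r52 is shown for a motif that recurs in its gene group. Capitals mark matches on either strand to CCCNNGGG (a core bound by EBF factors, known from olfactory neurons), TAATTA (a homeobox core) and TATAAA (the core promoter element of that name), and Vmn2r110 holds no match. They lie at chr10:79468708-79469007 (plus strand), chr17:17703691-17703990 (plus), chr17:20596210-20596509 (minus), chr17:55624623-55624922 (minus) and chr7:10176237-10176536 (minus) in the order given.
Vmn2r83: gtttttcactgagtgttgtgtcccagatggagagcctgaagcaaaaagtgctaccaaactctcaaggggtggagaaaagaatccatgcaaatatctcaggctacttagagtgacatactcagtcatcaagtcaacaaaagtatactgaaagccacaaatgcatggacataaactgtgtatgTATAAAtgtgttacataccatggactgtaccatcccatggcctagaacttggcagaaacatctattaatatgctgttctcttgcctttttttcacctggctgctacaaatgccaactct
Vmn2r90: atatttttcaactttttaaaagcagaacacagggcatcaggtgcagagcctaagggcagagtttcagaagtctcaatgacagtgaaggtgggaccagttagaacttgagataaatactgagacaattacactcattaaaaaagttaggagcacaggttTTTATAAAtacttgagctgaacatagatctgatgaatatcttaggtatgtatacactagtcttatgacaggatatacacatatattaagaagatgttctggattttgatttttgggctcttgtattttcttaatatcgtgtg
Vmn2r110: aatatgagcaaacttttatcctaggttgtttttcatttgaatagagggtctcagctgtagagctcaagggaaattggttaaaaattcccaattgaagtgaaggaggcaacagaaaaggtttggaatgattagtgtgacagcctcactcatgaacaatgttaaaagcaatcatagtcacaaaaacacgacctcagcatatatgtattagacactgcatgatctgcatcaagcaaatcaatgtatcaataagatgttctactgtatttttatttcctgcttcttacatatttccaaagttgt
Vmn2r118: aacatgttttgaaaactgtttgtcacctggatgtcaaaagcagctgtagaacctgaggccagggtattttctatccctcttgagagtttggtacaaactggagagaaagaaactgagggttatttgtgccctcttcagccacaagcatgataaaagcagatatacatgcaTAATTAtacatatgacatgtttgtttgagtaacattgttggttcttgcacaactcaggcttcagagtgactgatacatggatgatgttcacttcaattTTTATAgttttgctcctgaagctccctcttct
Vmn2r52: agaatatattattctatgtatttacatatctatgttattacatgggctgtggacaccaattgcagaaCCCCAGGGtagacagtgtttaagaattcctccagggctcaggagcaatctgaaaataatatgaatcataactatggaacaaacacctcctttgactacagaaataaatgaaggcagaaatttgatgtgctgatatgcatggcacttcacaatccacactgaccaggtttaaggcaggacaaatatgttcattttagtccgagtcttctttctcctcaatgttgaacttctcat

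The next sequences are the 4 strongest regions in Vmn2r bodies or within 10 kb of them that held a peak and a footprint in both replicates, on the plus strand of mm10. Capitals mark bases inside a footprint of either replicate. In the Vmn2r87 region the footprints of the replicates do not overlap. Of the region at the start of AI987944, only the part outside its untranslated exon is printed.
AI987944 start, chr7:41393380-41393480: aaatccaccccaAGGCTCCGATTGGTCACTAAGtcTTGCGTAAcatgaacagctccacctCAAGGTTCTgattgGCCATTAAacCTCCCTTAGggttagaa
Vmn2r7 distal intron, chr3:64791021-64791160: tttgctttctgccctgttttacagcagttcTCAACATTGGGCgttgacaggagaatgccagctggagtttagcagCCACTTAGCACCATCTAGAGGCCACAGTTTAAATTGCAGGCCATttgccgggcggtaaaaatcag
Vmn2r7 intron near the start, chr3:64842401-64842560: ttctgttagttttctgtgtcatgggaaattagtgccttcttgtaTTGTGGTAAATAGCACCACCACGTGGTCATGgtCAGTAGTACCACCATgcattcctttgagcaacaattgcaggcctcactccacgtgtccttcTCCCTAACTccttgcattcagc
Vmn2r87 downstream, chr10:130470321-130470540: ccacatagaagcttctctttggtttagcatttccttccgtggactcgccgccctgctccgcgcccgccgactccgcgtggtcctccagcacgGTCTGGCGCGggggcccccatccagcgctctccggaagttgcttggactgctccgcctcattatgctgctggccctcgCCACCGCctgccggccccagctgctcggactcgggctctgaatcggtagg

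Related families were set beside the Vmn2r genes by the same counts. No Vmn2r gene of 120 had a promoter peak in both replicates, against 1 of 208 Vmn1r genes (the other large vomeronasal receptor family) and 17 of 1134 Olfr genes (olfactory receptors). In at least 1 replicate the counts were 0 Vmn2r, 4 Vmn1r and 38 Olfr genes. The class C receptors outside the family, which share its fold, had promoter peaks in both replicates at 14 of 22 genes, or 63.6%. The 3 chemoreceptor families had the low counts, and the other class C receptors did not. No test of these differences was made.

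**Figure D1:**
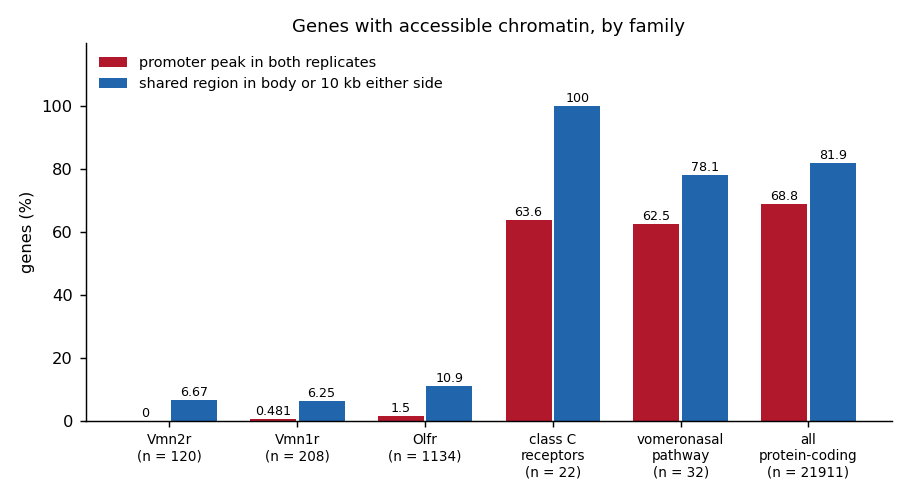
Percentage of genes with a promoter peak in both replicates (red) and with a region shared by both replicates in the gene body or 10 kb either side (blue), for 6 gene sets with their numbers of genes. Vmn2r genes stand at 0% and 6.67%, beside 68.8% and 81.9% of all protein-coding genes.

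A wider search took each gene body with 10 kb either side and merged the peaks of both replicates into regions, called shared where both had a peak. Of 120 Vmn2r genes, 8 had a shared region (6.67%), against 81.9% of all protein-coding genes, 13 of 208 Vmn1r genes and 124 of 1134 Olfr genes. A region in at least 1 replicate was near 50 Vmn2r genes (41.7%), against 85.6% of all protein-coding genes, 40 of 208 Vmn1r genes (19.2%) and 252 of 1134 Olfr genes (22.2%). By this count Vmn2r genes were above both receptor families, with no test of the difference. The median gene length was 27.2 kb for Vmn2r, 6.80 kb for Vmn1r and 6.01 kb for Olfr genes. No region was near the remaining 70 Vmn2r genes. The Vmn2r space of 5.92 Mb held 1.52 shared regions per Mb, against 2.46 in Vmn1r space, 6.85 in Olfr space and 38.2 over the genome. Counted per Mb of sequence whose 36-base words are unique, these were 2.61 in Vmn2r, 4.33 in Vmn1r and 8.72 in Olfr space, and 47.7 over the genome. Of bases with FDR under 0.05, Vmn2r space held 0.111% in replicate 1 and 0.0894% in replicate 2, against 1.61% and 1.48% of the genome.

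The start of a Vmn2r gene lay a median of 179 kb from the nearest shared region, against 169 kb for Vmn1r genes, 125 kb for Olfr genes and 0 kb for all protein-coding genes. For 82 Vmn2r genes (68.3%) the distance was over 100 kb, against 8.83% of all protein-coding genes. Vmn2r7 alone lay within 10 kb, at 2.21 kb. The nearest region of a single replicate lay 2112 bases from the start of Vmn2r74, with 0.155 in replicate 2. The farthest were Vmn2r98 at 1044 kb, Vmn2r121 at 1031 kb, Vmn2r97 at 1004 kb, Vmn2r72 at 975 kb and Vmn2r73 at 899 kb.

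**Figure D2:**
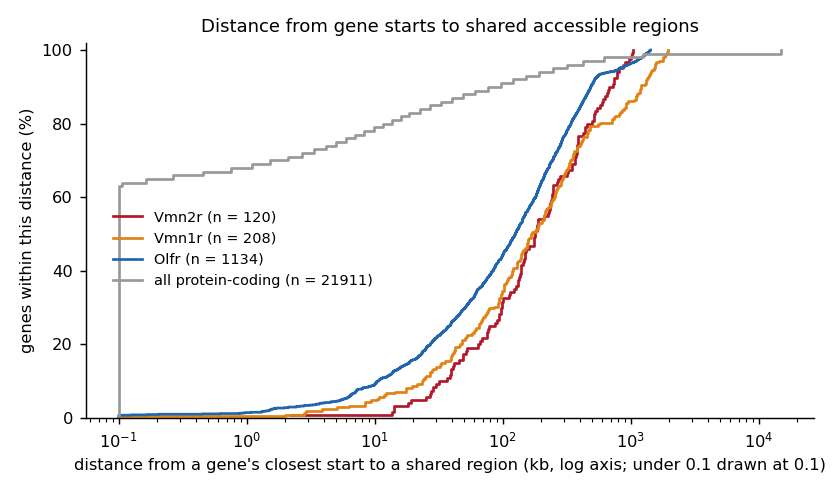
Cumulative percentage of genes whose closest start lies within a given distance (kb, log axis) of a region with a peak in both replicates, for Vmn2r, Vmn1r, Olfr and all protein-coding genes. The Vmn2r curve leaves the axis at 2.21 kb and reaches its middle at 179 kb, while that of all protein-coding genes starts above 60%.

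The 35 peaks of replicate 1 and the 31 of replicate 2 in Vmn2r space formed 55 regions. Of these, 9 were shared (16.4%), 25 were called in replicate 1 alone and 21 in replicate 2 alone, whereas 65.9% of 158036 regions over the genome were shared. The peaks were weak: the median signal in Vmn2r space was 0.213 in replicate 1 and 0.203 in replicate 2, against 0.780 and 0.728 over the genome. Only 3 peaks in replicate 1 and 2 in replicate 2 were above those genome medians. Sharing was also low over the genome at such signals. Of Vmn2r regions whose higher signal was from 0.1 to 0.2, 1 of 26 was shared, against 4.11% of 6127 regions of the genome in that range. From 0.2 to 0.3, 0 of 18 Vmn2r regions and 15.4% of genome regions were shared, and from 0.3 to 0.5 these were 4 of 5 and 37.1%. Of Vmn2r regions from 0.5 to 1, 2 of 2 were shared, against 72.6% of genome regions, and above 1 these were 2 of 2 and 97.5%.

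The strongest of the 9 shared regions was the promoter of a neighbour. It lay at chr7:41393281-41393480, across the start of the coding gene AI987944 and downstream of Vmn2r57, with signals of 3.40 and 3.25 (replicates 1 and 2) and 4 and 6 footprints. These signals were above 86.0% and 86.4% of all peaks of their replicates. The region at chr7:7300677-7300891, downstream of Vmn2r30, reached the start of Clcn4, a chloride and proton exchanger, with signals of 0.383 and 0.400 and 1 footprint in each replicate. Its base composition was 70.7% G and C. The highest peak in the Clcn4 promoter window, with 17.2 in replicate 1 and 13.6 in replicate 2, lay outside Vmn2r space.

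The next 2 in strength were inside Vmn2r7, the largest gene among Vmn2r1 to Vmn2r7 at 159.7 kb. The intronic region at chr3:64842401-64842560 had signals of 0.979 and 0.722 and 3 footprints in each replicate, and lay 2205 bases from a start of Vmn2r7. The intronic region at chr3:64791021-64791160 had signals of 1.72 and 1.12 with 3 and 1 footprints, and lay 20364 bases from a start. There, replicate 1 gave footprints of 25 and 15 bases where replicate 2 gave 1 footprint of 44 bases that covers both. All words of the first region and 99.3% of those of the second occur once in the genome. Neither matched any of the 8 motifs searched except the E-box CAGCTG in the second.

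The 5 remaining shared regions were weaker than those at AI987944 and in Vmn2r7, but not all were weaker than that at Clcn4. Downstream of Vmn2r87, chr10:130470321-130470540 had signals of 0.574 and 0.424, lay 69 bases from the start of the processed pseudogene Gm18755 and was 66.8% G and C. An exon of Vmn2r3 held chr3:64259581-64259860 with signals of 0.411 and 0.233. Downstream of Vmn2r44, chr7:8357786-8358220 had 0.312 and 0.257, across the start of the pseudogene Gm7696. Downstream of Vmn2r8, chr5:108790481-108790676 had 0.234 and 0.316. An exon of Vmn2r11 held chr5:109045762-109045853 with 0.149 and 0.149, above only 0.496% and 0.797% of the peaks. By place, 3 of the 9 shared regions were thus at the starts of non-receptor genes or pseudogenes, 1 more lay within 100 bases of one, 2 were in introns of Vmn2r7, 2 in exons of receptors and 1 downstream of Vmn2r8.

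Footprints were few and lay mostly inside peaks, as they did over the genome. Vmn2r space held 24 footprints in replicate 1 and 21 in replicate 2, or 3.8 ± 0.36 per Mb (SD, n = 2), against 126 ± 3.75 per Mb over the genome (SD, n = 2). Inside peaks lay 22 of the 24 (91.7%) and 19 of the 21 (90.5%), near the 88.7% and 87.1% of footprints over the genome. In their body or 10 kb either side, 14 Vmn2r genes had footprints in at least 1 replicate and 6 had them in both. The same counts over all protein-coding genes were not made, so these have no background beside them. Footprints of the replicates overlapped only at Vmn2r7 and Vmn2r57. At Vmn2r30, Vmn2r31, Vmn2r87 and Vmn2r99 they lay at different bases in each replicate. Vmn2r7 had 7 in replicate 1 and 5 in replicate 2, and Vmn2r57 had 5 and 6, all in or beside the region at the AI987944 start. Vmn2r31 had 4 and 1. Then 6 genes tied at 2 over both replicates: Vmn2r3 had 2 and 0, Vmn2r8 and Vmn2r9 had 0 and 2, and Vmn2r30, Vmn2r87 and Vmn2r99 had 1 and 1. None of the 24 and none of the 21 held a whole match to a searched motif, which over the genome are in 2.48% of footprints of replicate 1 at most (the CTCF core), so such counts are near the background.

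**Figure D3:**
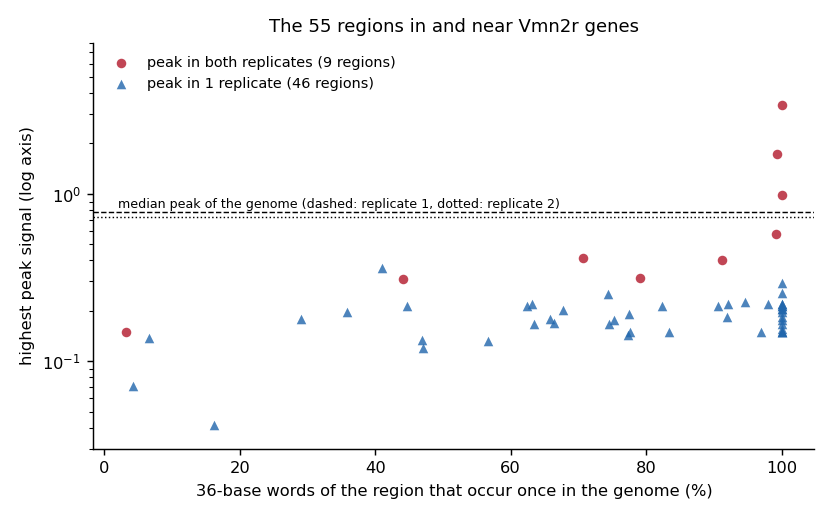
The higher of both replicates' peak signals (log axis) against the percentage of 36-base words that occur once in the genome, for the 55 regions in and near Vmn2r genes; circles have a peak in both replicates and triangles in 1. Most triangles lie under 0.3, below the median peaks of the genome at 0.780 and 0.728, and the regions under 50% unique reach at most 0.362.

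Repeated sequence limits where reads can be placed, and Vmn2r genes hold much of it. In Vmn2r space 58.3% of 36-base words were unique, against 82.4% over the genome. Vmn2r promoters had a median of 79.6% unique words, against 97.6% for all protein-coding genes, and 32 of 120 (26.7%) were under 50%, against 6.30%. For 6 of the 120 no word was unique. At least 90% unique were 35 Vmn2r promoters, of which 0 held a peak, and of the other coding genes in that class 77.6% were open in both replicates. Between 50% and 90% unique, 0 of 53 Vmn2r promoters and 41.4% of the others were open, and from 10% to 50% these were 0 of 13 and 17.3%. Under 10% unique, where 0 of 19 Vmn2r promoters had a peak, 3.69% of the others did. The others here include Vmn1r and Olfr genes. Without these families their shares were 80.9%, 51.4%, 18.9% and 3.91%, from the most to the least unique class. The part of read placement in the absence of peaks was not tested.

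The regions that were called were also repeated more often than elsewhere. In Vmn2r space 11 of 55 regions (20%) were under 50% unique, against 1.15% of regions over the genome, and 2 of the 11 were shared. Of the 11, 7 were on chromosome 7. The words of the Vmn2r11 exon region were 3.26% unique, with up to 16 copies, and recurred in 27 other places, 0 of which lay in a Vmn2r gene and 0 of which held a peak. The region in the Vmn2r3 exon recurred in 13 other places, all in Vmn2r genes or pseudogenes within 5 Mb, and 0 of these held a peak. The region at the start of Gm7696 recurred in 22 places within 5 Mb, 3 of them with a peak. The lowest signals of all, 0.0418 at chr7:8910428-8910495 in Vmn2r40 and 0.0716 at chr7:7875741-7875880 near Vmn2r36, both in replicate 2, were in regions 16.2% and 4.29% unique. The 19 regions of which at least 50% is marked as repeats in the reference were all called in 1 replicate only. So were 46 of all 55 regions, and the 19 all had signals under 0.3, where sharing was also low over the genome. The part of repeats in this was not tested.

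Near Vmn2r31 the replicates called neighbouring pieces of duplicated sequence. Replicate 1 had a peak of 0.362 at chr7:7374601-7374800, with 4 footprints, and replicate 2 had one of 0.197 at chr7:7374371-7374560. The pseudogene Gm3912 starts inside the first, and Gm45783 starts 28 bases from the first and 13 bases from the second. The 2 pieces were 41.0% and 35.8% unique, with 29 and 15 other places on chromosome 7. Neither counted as shared. The first was also the only one of the 46 regions of a single replicate that was in a smaller peak set, whereas 5 of the 9 shared regions were in both smaller sets. The part of read placement in these calls was not tested.

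Some genes of other families inside the Vmn2r groups were open. Besides the 120 members and the Vmn1r and Olfr genes, the spans held 30 coding genes, 1 of which, Vmn2r-ps130, carries a Vmn2r symbol outside the rule and had no peak. Of the 30, 14 (46.7%) had a promoter peak in both replicates, against 0 of 120 Vmn2r genes between them and 68.8% of all protein-coding genes. The 14 include Gm45783, whose peaks of 0.362 in replicate 1 and 0.197 in replicate 2 do not overlap. In the same spans 0 of 15 Olfr and 0 of 2 Vmn1r genes were open, as were none of Fpr1, Fpr2, Fpr3, Fpr-rs4, Fpr-rs6 and Fpr-rs7, formyl peptide receptors of which the rs members are known from vomeronasal neurons. Open genes included Clcn4 with 17.2 in replicate 1 and 13.6 in replicate 2, Spaca6 (a sperm acrosome protein) with 15.0 and 12.2, and the zinc finger genes Zfp40 with 10.8 and 8.02, Zfp788 with 9.05 and 5.99 and Zfp141 with 3.82 and 3.39. AW146154 and Gm20449 overlap and have the same promoter signals, 19.9 and 14.4, and both are counted among the 14. Has1, a hyaluronan synthase, had 0.426 in replicate 1 and no peak in replicate 2. Beyond the ends of the groups, the nearest open coding gene lay between 2.57 kb (AI987944 beside Vmn2r57) and 5614 kb away (Diaph2 beside Vmn2r121 on X), and there was none beyond Vmn2r87 on chromosome 10.

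**Figure D4:**
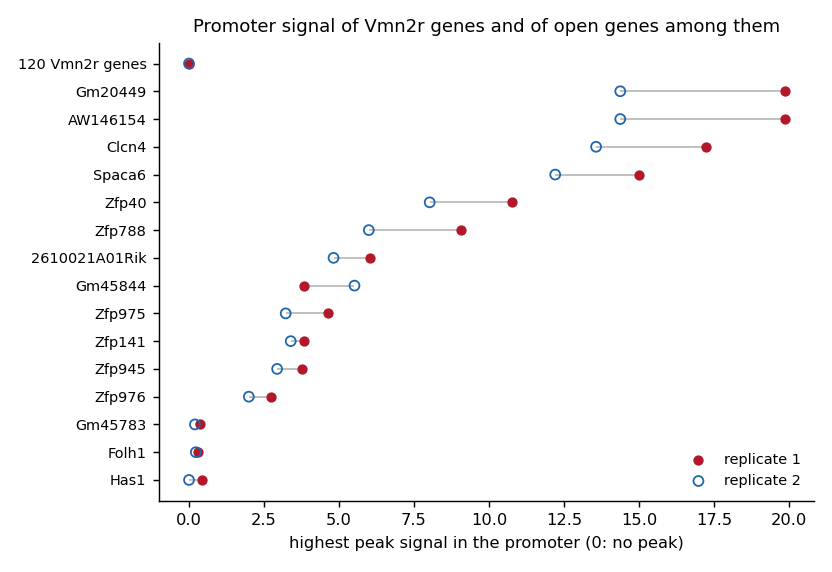
Highest peak signal in the promoter in replicate 1 (filled) and replicate 2 (open circles), for the 120 Vmn2r genes, all at 0, and for the 15 other genes inside the Vmn2r groups that had a promoter peak in at least 1 replicate. They run from 19.9 and 14.4 at AW146154 to 0.426 and no peak at Has1.

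One receptor start depended on the annotation. RefSeq holds promoters of 114 of the 120 Vmn2r genes, and 113 of their starts lie within 1 kb of a GENCODE start. That of Vmn2r29 lies 31.0 kb from the nearest GENCODE start, at chr7:7278240-7278539, and is the start GENCODE gives to the coding gene Gm45844. A shared region there, chr7:7278161-7278500, had signals of 3.84 in replicate 1 and 5.51 in replicate 2 with 6 footprints in each, and 48.8% of its words are unique. With RefSeq starts, 1 Vmn2r gene therefore had a promoter peak in both replicates.

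Vmn2r promoters were poor in CG dinucleotides. The 300-base RefSeq promoters had a median of 38% G and C, against 57% for all protein-coding genes and 60.7% for open ones, and a median of 1 CG dinucleotide, against 14 and 20. Of the 114, 106 had at most 3, and the promoter with the most, 23, was that of Vmn2r29. Among coding genes outside the 3 chemoreceptor families, the open share was lower at low CG content but was not 0: with no CG, 0 of 32 Vmn2r promoters and 12.4% of the others were open, and with 3, 0 of 14 Vmn2r promoters and 33.5% of the others. Vmn1r promoters (36% G and C) and Olfr promoters (35%) were of like composition.

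**Figure D5:**
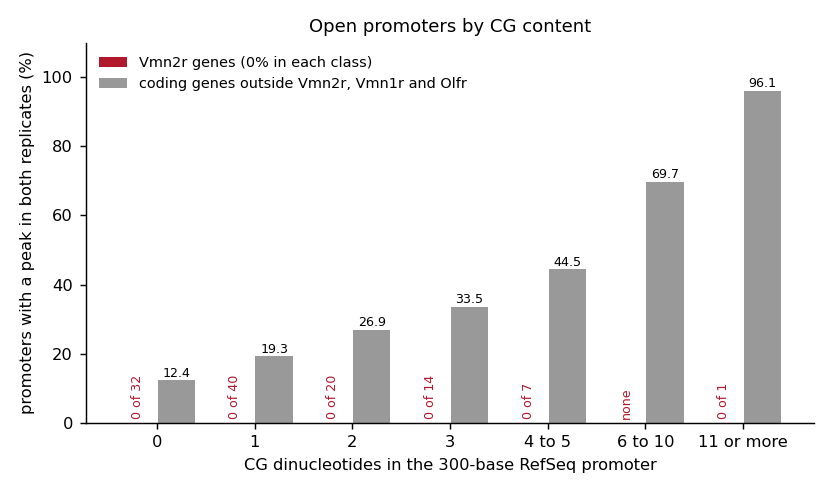
Percentage of promoters with a peak in both replicates (GENCODE windows) by the number of CG dinucleotides in the 300-base RefSeq promoter, for Vmn2r genes (red labels, none open) and coding genes outside the Vmn2r, Vmn1r and Olfr families (grey). Grey bars climb to 96.1% at 11 or more, a class whose only Vmn2r member is Vmn2r29, with its RefSeq start 31.0 kb from the GENCODE one.

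Motifs were searched on both strands, and a match is only a run of letters. TAATTA was in 20 of 114 Vmn2r promoters (17.5%), against 4.61% of 16522 RefSeq promoters of coding genes, 8.20% of Vmn1r and 18.7% of Olfr promoters. TATAAA was in 26 (22.8%), against 12.9% of all promoters, 44.3% of Vmn1r and 41.1% of Olfr promoters. CCCNNGGG was in 22 (19.3%), against 15.7% of all promoters, 0.546% of Vmn1r and 3.01% of Olfr promoters. In 18 Vmn2r promoters the match was the word CCCCAGGG, against 3.44% of all promoters with that word on either strand. Of the 18, 17 belonged to the group Vmn2r29 to Vmn2r52 and 1 was Vmn2r28, and their matches began between 183 and 66 bases before the start. The Vmn2r52 promoter above shows it at position -183. Tandem copies share their ancestry, so these are not independent occurrences. Of the other motifs, AGATAA (a core bound by GATA factors) was in 14.0% of Vmn2r promoters and 9.72% of all, GCCNNNGGC (AP-2 factors) in 7.02% and 20.1%, CAGCTG (an E-box) in 8.77% and 15.2%, the MEF2 core in 2.63% and 3.41%, and the CTCF core in 1.75% and 2.38%. In windows of 150 bases, the CTCF core was in 0 of the 9 shared Vmn2r regions and in 9.84% of all shared regions.

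Vmn2r1 to Vmn2r7, the clade found together with other receptors, stand side by side on chromosome 3. All 7 had promoters without a peak. Their group held 3 of the 9 shared regions, 2 of them in Vmn2r7 and 1 in Vmn2r3, and Vmn2r1, Vmn2r2, Vmn2r4, Vmn2r5 and Vmn2r6 had 0. Promoter uniqueness among them ran from 7.0% for Vmn2r5 to 97.7% for Vmn2r3. Vmn2r26, a receptor for peptides bound by major histocompatibility molecules, had 1 region in replicate 2 alone, 0.197 in an intron. Vmn2r116, the receptor for the male pheromone peptide ESP1, had 0 regions in its body or flanks and lay 161.8 kb from a shared one.

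Genes listed for the vomeronasal pathway were mixed, and a place in the list does not make a gene a partner of Vmn2r receptors. Of 32 genes of the vomeronasal pathway list, 20 had a promoter peak in both replicates (62.5%, against 68.8% of all protein-coding genes) and 1, Neurog1, in replicate 2 alone with 0.472. Of 10 signalling genes 9 were open, among them Gnao1 with 6.31 and 8.56, Gnb1 with 17.1 and 15.4 and Gnai2 with 14.5 and 10.8, which are G protein subunits of many tissues. The exception was Trpc2, the channel of vomeronasal transduction. Of 10 membrane companions B2m alone was open, with 11.2 and 8.10. H2-M1, H2-M9, H2-M10.1, H2-M10.2, H2-M10.3, H2-M10.4, H2-M10.5, H2-M10.6 and H2-M11, the H2-Mv molecules of V2R neurons, had no peak. Of 12 lineage genes 10 were open, Atf5 highest with 22.4 and 17.6, and the olfactory marker protein gene Omp had none.

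As a check of the tissue, all 8 heart muscle markers (Tnnt2, Myh6, Ryr2, Actn2, Tpm1, Ttn, Gata4 and Nkx2-5) had promoter peaks in both replicates, with mean signals from 1.5 to 22.2. Over all protein-coding genes 68.8% had such peaks, so the count alone says little about the tissue. Of 5 markers of vomeronasal neurons, Omp and Trpc2 had no peak, Ano2 had 0.312 and 0.316, Tfap2e had 1.28 and 0.991 and Gng8 had 7.48 and 5.86. The values of Gng8 lay within the range of the heart markers, so signal did not separate the lists. The larger sets held 143122 peaks in replicate 1 and 125118 in replicate 2. In a bulk tissue a peak can come from a small share of its cells, and the share of cells behind a signal cannot be told from the signal.

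Annotated Vmn2r genes outside the 120 were nearly all pseudogenes: 115 of 118. Of the 118, 5 had a peak within 1 kb of a start in both replicates. Vmn2r-ps15, Vmn2r-ps17, Vmn2r-ps18 and Vmn2r-ps19 lie on chromosome 4, which carries none of the 120 members, with 0.915 and 0.967, 0.340 and 0.448, 0.610 and 1.08, and 1.68 and 2.16. The signals of these 4 were higher in replicate 2 than in replicate 1. Each region lay at or within 11 bases of the start of another pseudogene (Gm13243, Gm13168, Gm13162 and Gm13161), and its words had up to 6 copies, with 2.50% to 85.4% unique. The fifth, Vmn2r-ps24 on chromosome 5, had 0.234 and 0.191 in a region whose words are all unique.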

How the data were processed

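DNase-seq of heart gave, for each of 2 biological replicates, 2 peak sets, runs of bases with their FDR, and footprints, all made from that replicate's filtered alignment to mm10 without pooling, per the file headers. Peak signal is the seventh column as deposited by the authors; the headers name a read-depth normalized track from the same alignment but not the scale of the peaks. Signals under 3 fall on steps of 0.00709 (replicate 1) and 0.00597 (replicate 2), each to within 10% of its step; what a step stands for is not stated. The FDR column is a q-value of the authors' cleavage test, deposited for runs under 0.05. Not given in the sources used here are the callers, versions, read totals, read length, mapping filters and how CAST reads were handled on the C57BL/6J reference, so no counting interval can be stated.

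The larger peak sets were used. Transcript starts came from GENCODE M21, and genes were counted once per symbol, without the mitochondrial genome. Peaks of both replicates were merged where they overlapped or touched, and a region or promoter took its highest peak. A promoter counted in both replicates where each had a peak in its window, whether or not these peaks overlapped. A word is 36 bases, counted on both strands in the reference, with every 1000th base sampled for the genome. Repeats are the lower-case bases of the reference. Places of copies were joined within 1 kb. Python 3.11.15, pandas 2.3.3, numpy 2.4.6, numba 0.67.0, matplotlib 3.10.9 and bedtools 2.31.1 were used. Region, promoter and word counts were checked on simulated data. Error is the SD of 2 replicates, and no group comparison or test exists.

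Named were the 10 Vmn2r genes with the highest peak near them, those with most footprints (the rule asks for 5, and 6 genes tied for its last places, so all are given), the 5 farthest from a shared region, Vmn2r1 to Vmn2r7, Vmn2r26 and Vmn2r116, and pathway genes without a peak or with the 5 highest signals; other names, and the printed promoters, were chosen after values were seen. Members and lists were chosen with earlier results of these data known. Of the 10 highest, Vmn2r31 (0.362 and 0.197), Vmn2r99 (0.177 and 0.221) and Vmn2r91 (0.170 and 0.179) had different regions in each replicate.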

Additional observations from a re-analysis of the deposited data

How the results depend on the processing

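The count of 0 Vmn2r genes with a promoter peak, in both replicates or in either, was the same with windows of 500 bp and 2 kb, the 5′ end alone, the smaller peak sets, peaks at or above the median signal, peaks away from other coding starts, peaks of mostly unique words, and either replicate alone (0 to 0). It was 5 in both and 5 in either with pseudogenes added. Chosen after seeing the data, a window of 5 kb gave 1 in both and 7 in either, 10 kb gave 2 and 14, and RefSeq starts gave 1 and 1. The 8 genes with a shared region became 3 with the smaller sets, 2 at or above the median signal, 3 with no flank and 25 with 50 kb. With 1 replicate left out, where any peak of the other counts, they were 30 to 32. The 1.52 shared regions per Mb became 0.676, 0.338, 1.09 and 3.42 in those 4 settings, and 5.24 to 5.74 with 1 replicate left out. The 3.8 footprints per Mb became 1.91 with no flank, 10.8 with 50 kb and 3.55 to 4.05 with 1 replicate left out. The 32 promoters under 50% unique became 48 with words of 24 bases and 28 with 50. No paired analysis was possible because there is 1 group. Fewer peaks, or a wider span that takes in other genes, enter these counts by construction. Read totals are unknown, so peaks too weak to be called at this depth cannot be told from closed chromatin.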
